A study of Mus musculus with 12 samples.

Results

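Of 328 sense-strand transcripts with enough ribosome footprints in wild-type mouse embryonic stem cells, 247 had a lower footprint rate during heat shock and 81 did not. The files list 61396 transcripts in all, most of them with too few counts to be judged by this rule. These 81 were chosen from the counts themselves. A transcript entered when it had at least 50 stranded counts over the 12 libraries, at least 80% of them on its own (sense) strand, at least 20 sense counts over the unheated and heated wild-type libraries, and a heated rate no lower than the unheated one. The rate was the sense count of the 2 libraries of a group per 1000000 reads, plus 0.5. Of 573 transcripts with enough stranded counts, 405 were sense-strand, 364 of these had enough wild-type counts, and 36 of those were left out by ID, which left 328 eligible transcripts. The 81 are those of the 328 with a log2 ratio of heated over unheated wild type at or above 0, and the other 247 lay below it. Of the 36 left out by ID, 6 also had a ratio at or above 0. The wild-type unheated and heated values therefore describe the choice and are not tested. The knockout libraries and the wild-type recovery libraries did not enter the ratio, though they did enter the count and strand minimums.

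Ribosome profiling sequences the mRNA fragments that a translating ribosome keeps from nuclease. A count follows the number of ribosomes on all copies of a transcript and cannot tell more ribosomes per copy from more copies. Heat shock makes cells lower the translation of most mRNAs, while mRNAs of chaperones and of other stress proteins stay on ribosomes or gain them. Mettl14 is the RNA-binding subunit of the complex that writes N6-methyladenosine into mRNA, and this mark has been linked to the choice of mRNAs translated or stored under stress.

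The study profiled ribosome footprints in V6.5 mouse embryonic stem cells that were wild type (WT) or Mettl14 -/- (KO). Cells of each genotype were harvested without heat (noHS), after 30 min at 42 °C (HS), or after the same heat followed by 1 h at 37 °C (recovery), which gives 6 groups of 2 libraries. All cells grew on gelatin in medium with LIF, a GSK3 inhibitor and a MEK1 inhibitor, and all lysates contained cycloheximide. The design calls the libraries biological replicates, and the labels do not say whether the knockout line is a single clone.

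The files identify transcripts by ID alone. A search of the gene table used here gave 0 matches, so the 81 transcripts go by their IDs and their products are not described. For the same reason the Mettl14 level, stem cell markers and chaperone genes were not analysed here, and no transcript or promoter sequence is shown. The libraries held 679360 to 2084034 reads, of which 36.8% to 55.5% were unmapped and 1.26% to 8.75% were assigned to a transcript. The 81 transcripts together drew 749 counts in KO recovery replicate 2 and 3164 in KO noHS replicate 2, the extremes of the 12 libraries. A floor of 3 counts corresponds to 1.44 to 4.42 per 1000000 reads, depending on the library, so many of the values below rest on few counts.

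In unheated and heated wild-type cells, the values that chose the members, the summed rate of the 81 was 785 and 993 per 1000000 reads before heat (WT noHS) and 1501 and 2376 during it (WT HS). The summed rate of the other 247 was 3300 and 5920 before heat and 1309 and 1180 during it. The 81 thus held 16.8% ± 3.42 (SD, n = 2) of the sense counts of the 328 eligible transcripts without heat and 60.1% ± 9.48 (SD, n = 2) during it. The median log2 ratio of the 81 was 0.56, with quartiles of 0.33 and 1.12, and 25 of the 81 at least doubled on this scale. The median of the other 247 was −2.99. These are descriptions of the choice, and nothing is read from the background: both WT HS libraries lay above both WT noHS libraries for 21 of the 81 members, and for 6.4% of the 328 eligible transcripts. Both lay below for 0 of the 81, again by selection, and for 58.8% of the 328.

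**Figure D1:**
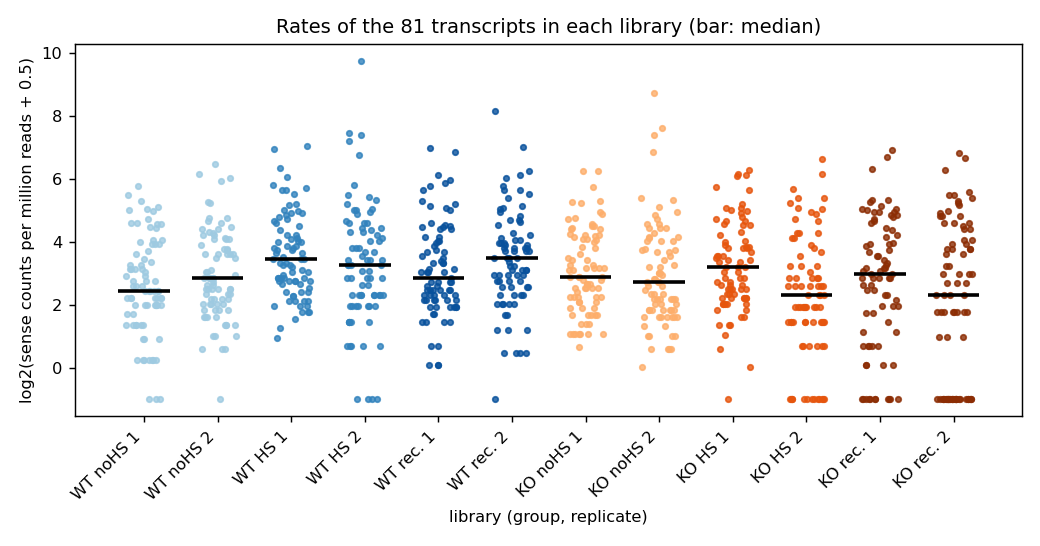
Log2 of sense counts per 1000000 reads plus 0.5 for each of the 81 transcripts (points) in each of the 12 libraries, with the median as a bar. Points at the bottom have no count: 26 of 81 in KO recovery replicate 2, 11 in KO recovery replicate 1 and 13 in KO HS replicate 2, against at most 4 in any WT library.

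The 2 WT HS libraries did not hold the same members up. The ratio to pooled WT noHS was at or above 0 for 63 of the 81 with WT HS replicate 1 alone, for 48 with replicate 2 alone, and for 30 with both. Across the 81 transcripts the Spearman correlation between the WT HS libraries was 0.22. It was 0.41 for WT noHS, 0.59 for WT recovery, 0.80 for KO noHS, 0.62 for KO HS and 0.70 for KO recovery. These correlations are descriptions over transcripts that share a library and its depth. WT HS replicate 1 held 182409 counts on either strand and 430685 sense counts, and replicate 2 held 19538 and 34184. When the rule was applied without WT HS replicate 1, it gave 44 transcripts, 36 of them among the 81, and without replicate 2 it gave 70, with 57 among the 81.

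**Figure D2:**
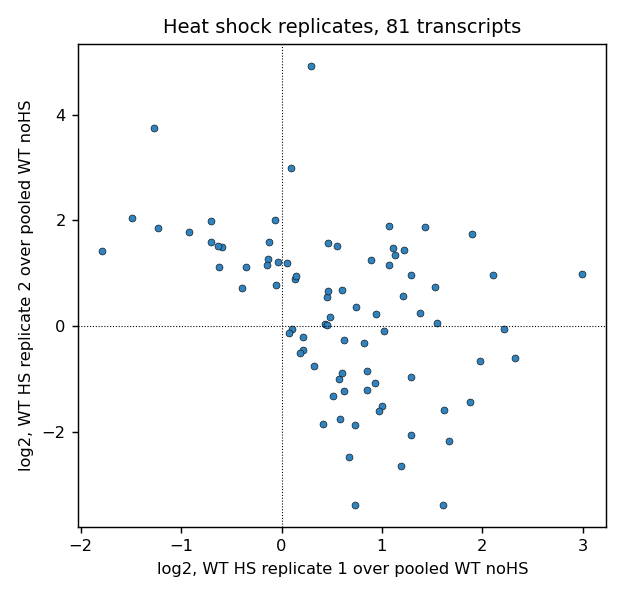
Log2 rate ratio of each WT HS library over the pooled WT noHS libraries for the 81 transcripts, replicate 1 on the horizontal axis and replicate 2 on the vertical axis. Only 30 points lie at or above 0 on both axes, and the highest points on the vertical axis, uc033hsh.1 and uc033gjx.1, rest on replicate 2.

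The highest ratio in WT HS rested mainly on a single library. The transcript with the highest ratio, uc033gjx.1, had 4.88 and 5.11 sense counts per 1000000 reads without heat in the wild type, and 6.24 and 166 with it. Its log2 ratio was 3.31, and WT HS replicate 2 held 66.6% of its summed rate over the 12 libraries. It had 7.80 and 7.16 in WT recovery, 2.67 and 7.12 in KO noHS, 4.63 and 0 in KO HS, and 30.4 and 7.36 in KO recovery. Both libraries of WT HS, WT recovery and KO recovery were above both noHS libraries of their genotype, and only KO HS overlapped its noHS group. The transcript uc033hsh.1 had 53.7 and 70.5 without heat, and 25.9 and 851 with it, where it made up 35.8% of the summed rate of the 81 in replicate 2. Its neighbour in the files, uc033hsg.1, is also a member, and these are the 2 members that lie in adjacent rows. Whether they overlap in the genome was not tested. Only uc033gjx.1 and uc033hsh.1 had over 50% of their summed rate in 1 library.

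The next highest ratio was that of uc008wab.1. Its rate was 0.697 and 1.02 per 1000000 reads without heat, and 10.6 and 2.25 with it, a log2 ratio of 2.63. These are 3 counts against 24, and the groups did not overlap.

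The cut at 0 passes through a dense part of the distribution. Just inside it were uc009pwv.2, with a log2 ratio of 0.0014, and uc009qev.2, with 0.0085. Just outside it were uc033ixw.1, with −0.0025, and uc033iml.1, also with −0.0025. The 4 transcripts differed in the knockout, where the log2 ratio of KO HS over KO noHS was 1.55 for uc009pwv.2, 1.21 for uc009qev.2, −3.06 for uc033ixw.1 and −0.69 for uc033iml.1. These rest on few counts. In KO noHS against KO HS, uc009pwv.2 had 6 and 8 against 22 and 11, and uc009qev.2 had 10 and 7 against 26 and 5. The transcript uc033ixw.1 had 4 and 55 against 4 and 0, so its fall rests mainly on KO noHS replicate 2. For uc033iml.1 the counts were 11 and 12 against 9 and 1.

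In knockout cells, which had no part in the ratio, heat shock left the median of the 81 near its unheated rate. The summed rate of the 81 was 1014 and 1608 per 1000000 reads in KO noHS, and 1194 and 843 in KO HS, so the groups overlapped. For the other 247 it was 3679 and 5332 in KO noHS and 2247 and 1605 in KO HS, so both heated libraries were lower. The median log2 ratio of KO HS over KO noHS was 0.19 for the 81 (quartiles −0.60 and 1.02) and −1.74 for the other 247 (quartiles −2.63 and −0.78). Without KO HS replicate 1, the median of the 81 was −0.35. The ratio was at or above 0 for 44 of the 81 members, and for 24.1% of all 328 eligible transcripts.

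Single members spread widely in heated knockout cells, from a log2 ratio of −4.02 to 2.75. Both KO HS libraries lay above both KO noHS libraries for 27 of the 81, where 13.4% of the eligible 328 did so, and below them for 16, where 56.1% of the eligible did so. For the other 38 the groups overlapped. In the fit of all 537 transcripts with enough counts, which held 75 of the 81, no member passed the threshold between KO HS and KO noHS (edgeR quasi-likelihood test, Benjamini-Hochberg adjusted p below 0.05). The share called over all transcripts was 0.559%, all of them lower. An unadjusted p below 0.05 was found for 6 of the 75 members and for 109 of the 537. In the DESeq2 Wald test 2 members passed, both lower, among 21 of the 537. With 2 libraries a group and a biological coefficient of variation of 66.1%, missing the threshold does not show that a member kept its rate.

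**Figure D3:**
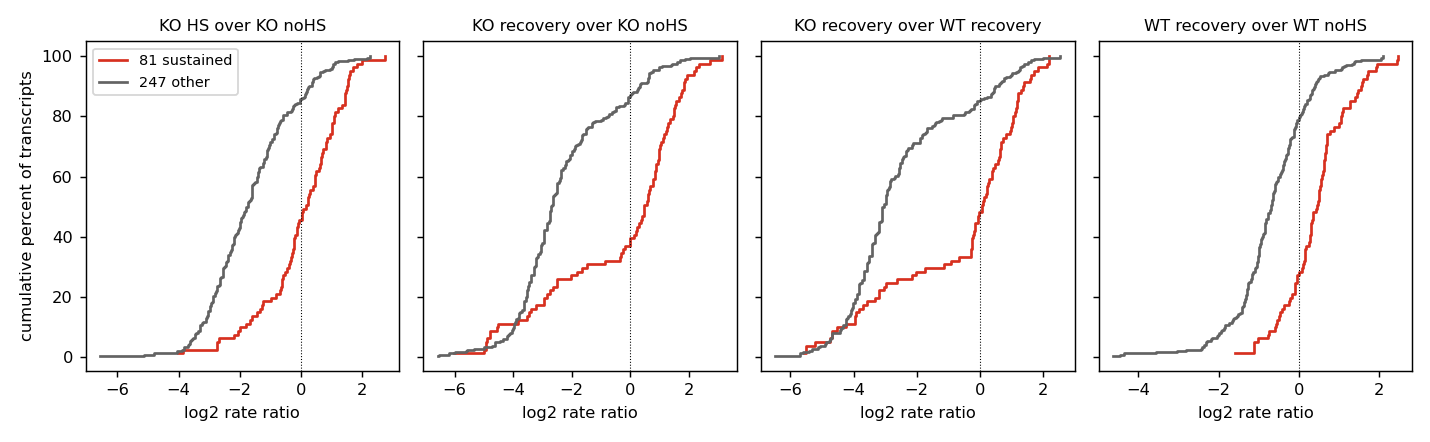
Cumulative percent of transcripts by log2 rate ratio (sense counts per 1000000 reads plus 0.5) in 4 comparisons, for the 81 transcripts sustained in WT heat shock and the other 247 eligible ones. The medians of the 81 are 0.19, 0.46, 0.08 and 0.44 from left to right, against −1.74, −2.69, −3.03 and −0.69; in the panels with KO recovery, TMM scaling turned the medians of the 81 to −0.43 and −0.40.

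At the upper end stood uc009rdr.2, with 30.7 and 37.3 per 1000000 reads in unheated wild-type cells, and 49.4 and 13.5 in heated ones. In the knockout it had 21.3 and 12.7 without heat, and 68.9 and 70.2 during it, a log2 ratio of 2.00 with no overlap. The only higher ratio among members with at least 20 counts in these groups was that of uc008wab.1, at 2.75, with 1.60 and 1.02 in KO noHS and 15.4 and 3.34 in KO HS. The fitted log2 fold change of uc008wab.1 was 3.01 ± 1.30 (SE), and it did not pass the threshold (edgeR adjusted p = 0.173), as uc009rdr.2 did not (edgeR adjusted p = 0.283).

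At the lower end stood uc012bum.1 and uc033hsh.1. In the wild type, uc012bum.1 had 20.9 and 11.8 without heat, and 80.1 and 10.1 during it. In the knockout it had 26.7 and 34.1 without heat, and 2.06 and 0 during it, a log2 ratio of −4.02. The groups overlapped in the wild type and did not in the knockout. The fitted log2 fold change in KO HS was −4.41 ± 1.39 (SE), with edgeR adjusted p = 0.110. For uc033hsh.1, the knockout libraries had 30 and 327 counts without heat and 15 and 2 during it, again without overlap (log2 ratio −3.85, edgeR adjusted p = 0.110).

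The member with the highest summed rate over the 8 libraries outside the ratio, uc033hyb.1, varied widely between replicates. It had 74.7 and 416 in KO noHS, and 77.6 and 3.34 in KO HS. The heated libraries therefore overlapped the unheated ones despite a log2 ratio of −2.19. Transcript length does not enter these rates, so they compare libraries and not transcripts.

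**Figure D4:**
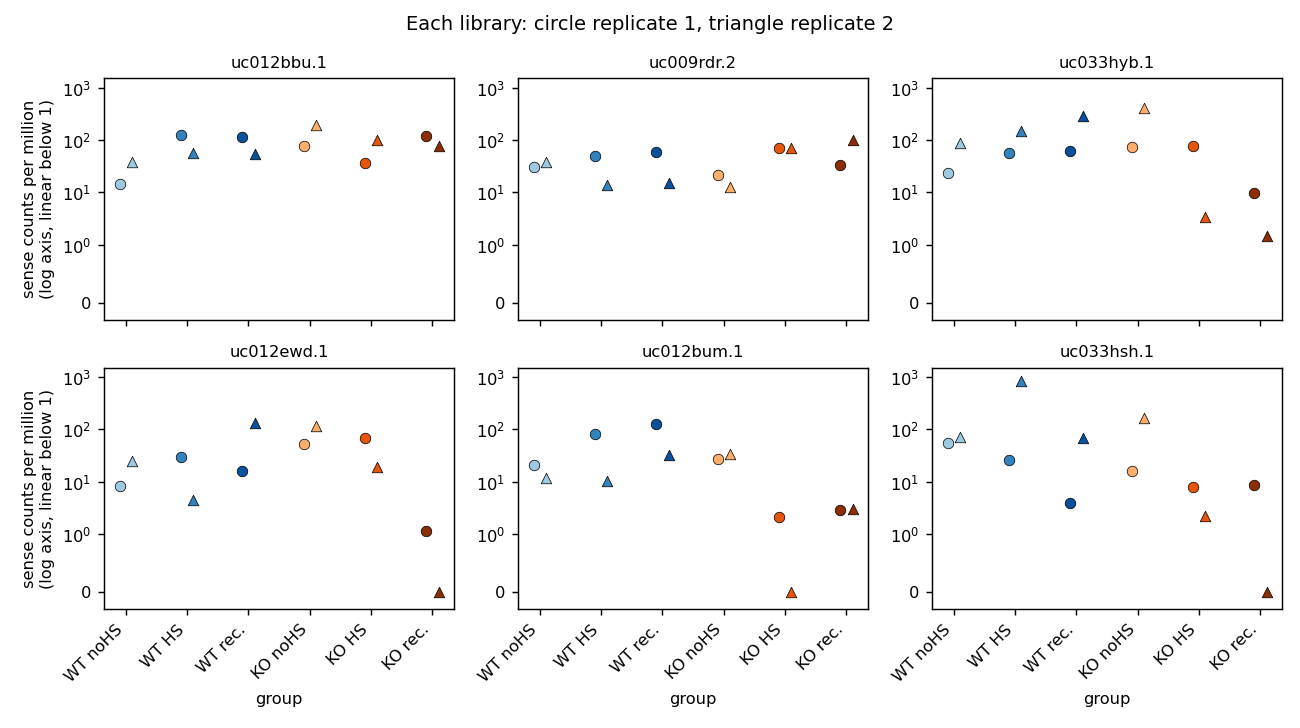
Sense counts per 1000000 reads of 6 of the 81 transcripts in each library, on an axis that is logarithmic above 1 and linear below it (circles replicate 1, triangles replicate 2). KO recovery values lie below KO noHS values for uc033hyb.1, uc012ewd.1, uc012bum.1 and uc033hsh.1, above them for uc009rdr.2, and overlap them for uc012bbu.1.

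During recovery in knockout cells, the 81 spread from transcripts with no count to transcripts with more counts per read than before heat. Both KO recovery libraries lay below both KO noHS libraries for 27 of the 81, where 67.4% of the 328 eligible transcripts did so. Both lay above for 33 of the 81, where 14.6% of the eligible did so, and the groups overlapped for 21. No count was seen in either KO recovery library for 10 of the 81 and for 118 of the other 247. The 10 had 304 counts in KO noHS and 251 in WT recovery. In KO recovery the share of reads assigned on either strand was the lowest of the 6 groups, 1.26% ± 0.00324 (SD, n = 2), where KO noHS had 7.47% ± 1.26. Sense counts over all transcripts were 21472 and 6479 in KO recovery, where KO noHS had 285157 and 393501. The unmapped share was the highest, 52.5% ± 4.28, where KO noHS had 39.7% ± 2.61 (SD, n = 2 each). The part of these values in the result was not tested.

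The direction of the whole list depended on the scaling. The TMM factors were 10.7 and 16.0 for the KO recovery libraries and at most 2.27 for the others. With rates per read, the median log2 ratio of KO recovery over KO noHS was 0.46 for the 81 and −2.69 for the other 247, and with TMM scaling of the same counts it was −0.43 and −3.16. For the 118 of the other 247 with no KO recovery count, a ratio of KO recovery to another group is set by the added 0.5 and the rate of that group. The members at or above 0 numbered 51 with rates per read and 28 with TMM. At or above 0 with rates per read were 25.3% of the eligible 328. Without KO recovery replicate 1, the median per read of the 81 was −0.24. The summed rate of the 81 was 1161 and 1103 per 1000000 reads in KO recovery, inside the range of the KO noHS libraries.

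With the members split by this ratio per read, 51 were at or above 0, 8 lay between −2 and 0, and 22 were at or below −2. These cut points were set after the values were seen. The 51 summed to 451 and 410 per 1000000 reads in KO noHS and 949 and 1001 in KO recovery, which the split itself selects. In the wild-type libraries, which had no part in the split, the same 51 summed to 538 and 426 in noHS, 675 and 1109 in HS, and 660 and 586 in recovery. The 22 summed to 387 and 924 in KO noHS and 30.4 and 4.42 in KO recovery. In the wild type the 22 summed to 197 and 447 in noHS, 642 and 1105 in HS, and 426 and 888 in recovery. The rise from noHS to HS is selected by the choice of the members. Single transcripts gave much of the replicate 2 sums. Of the 1105 in WT HS, uc033hsh.1 gave 851. Of the 888 in WT recovery, uc033hyb.1 gave 286 and uc012ewd.1 gave 129. Of the 924 in KO noHS, uc033hyb.1 gave 416 and uc033hsh.1 gave 166. The summed WT recovery rates of the 22 lay within the range of the unheated and heated ones. The median log2 ratio of WT recovery over WT noHS was 0.53 for the 22, beside 0.44 for the 51. It was at or above 0 for 17 of the 22 and 36 of the 51.

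**Figure D5:**
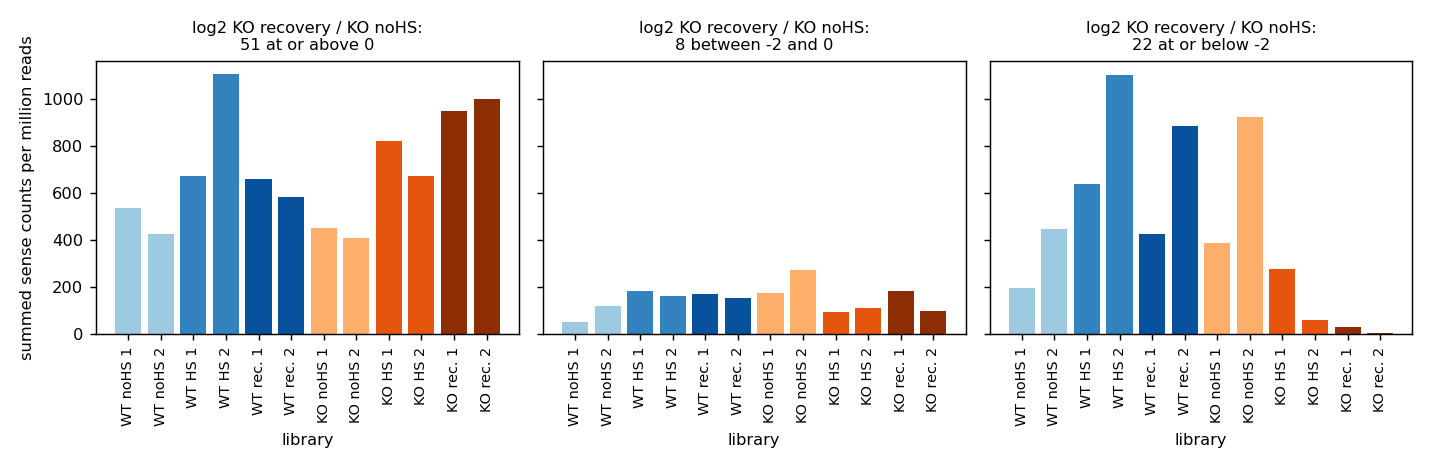
Summed sense counts per 1000000 reads in each library for the 81 transcripts, split by their log2 ratio of KO recovery over KO noHS per read into 51, 8 and 22 transcripts. The 22 fall to 30.4 and 4.42 in KO recovery by selection, and stand at 426 and 888 in WT recovery, which the split did not use. In replicate 2, uc033hyb.1 gives 286 of the 888, and uc033hsh.1 gives 851 of the WT HS sum of the 22. With TMM scaling 28 rather than 51 transcripts are at or above 0.

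The ratio of KO HS over KO noHS shares the KO noHS libraries with the split, so the 2 ratios are not set against each other. Across the 81, the log2 ratios of KO recovery over KO noHS and WT recovery over WT noHS, which share no library, had a Spearman correlation of −0.10, a description over transcripts that share depth and library within each ratio.

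In the test of KO recovery against KO noHS, 18 of the 75 members tested fell and none rose (edgeR, adjusted p below 0.05). That is 24% of the members tested, beside 40.4% of all 537 transcripts. With scaling to all reads the order turned: 7 of the 75 were called, or 9.33%, beside 5.96% of all transcripts, and all 7 were among the 18. The DESeq2 Wald test called 13 members, 11 lower and 2 higher, among 83 of the 537. With the 6 of the 18 that had no KO recovery count set at a floor of 3 counts over the group, the median log2 ratio per read of the 18 was −3.55. All 18, picked here by their adjusted p, had no overlap between groups. Among the 328 eligible transcripts, 67.4% had both KO recovery libraries below both KO noHS libraries. With TMM, the median log2 fold change of all 537 transcripts was −2.41, and scaling to all reads raised the fold changes by a median of 0.94. The median fitted log2 fold change of the members tested was −0.37. Without KO recovery replicate 1 or 2 it was −0.54 or 0.64, and without KO noHS replicate 1 or 2 it was −0.24 or −0.16. These refits leave 1 library in a group and tested 769 to 821 transcripts, so their calls are not comparable with the 18.

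The largest fitted falls were those of uc009ofq.2 and uc012fgs.1. The transcript uc009ofq.2 had 5.87 and 22.9 per 1000000 reads in KO noHS. It had no count in KO recovery and was at least 11.9-fold lower there (edgeR adjusted p = 0.00145). It had 8.74 and 0 in KO HS, and 6.13 and 22.4 in WT recovery. For uc012fgs.1 the KO noHS libraries had 20.8 and 8.64 and those of KO recovery none, with the same bound of 11.9-fold (edgeR adjusted p = 0.00145). Neither transcript overlapped between these groups. With KO recovery replicate 1 left out both bounds were 3.30, and with replicate 2 left out they were 8.64. Leaving out KO noHS replicate 1 or 2 gave 18.7 or 4.81 for uc009ofq.2, and 7.08 or 17.0 for uc012fgs.1. Without either KO recovery library neither passed the threshold, with adjusted p-values of 0.200 and 0.132 for both transcripts, and with scaling to all reads they were 0.0626 and 0.0686.

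Among the 4 members with the highest summed rate, uc012ewd.1 and uc033hyb.1 were also among the 18. The transcript uc012ewd.1 had 53.3 and 113 in KO noHS and 1.12 and 0 in KO recovery, a fitted log2 fold change of −7.63 ± 1.57 (SE), with edgeR adjusted p = 0.000198. The transcript uc033hyb.1 had 9.56 and 1.47 in KO recovery (edgeR adjusted p = 0.000557). The other two were not called. For uc012bbu.1 the KO libraries had 75.2 and 194 without heat, 36.5 and 98.0 during it, and 120 and 76.5 after it, so that all groups overlapped. In the wild type, uc012bbu.1 had 14.6 and 37.8 without heat, 122 and 55.1 during it, and 115 and 53.7 after it, with both later groups above the first. For uc009rdr.2 the KO recovery libraries had 32.6 and 100.1, both above KO noHS.

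Between heat shock and recovery in the knockout, 6 of the 75 members tested fell and none rose (edgeR, adjusted p below 0.05), which is 8% beside 4.28% of all 537 transcripts. With scaling to all reads, none of the 75 and none of the 537 passed. With TMM, 14 members had an unadjusted p below 0.05, among 86 of the 537, and 3 passed in the DESeq2 Wald test, among 15 of the 537. In 5 of the 6, picked here by their adjusted p, the groups did not overlap. Among the 328 eligible transcripts, 20.1% had both KO recovery libraries below both KO HS libraries. With TMM the median fitted log2 fold change of the members tested was −1.01. Without KO HS replicate 1 or 2 it was 0.05 or −1.19, and without KO recovery replicate 1 or 2 it was −0.76 or −0.16.

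The largest fitted falls were those of uc012dmf.1 and uc012ewd.1. The transcript uc012dmf.1 had 13.4 and 3.34 per 1000000 reads in KO HS. With no count in KO recovery, it was at least 8.36-fold lower there (edgeR adjusted p = 0.0109). For uc012ewd.1, with 67.9 and 18.9 in KO HS, 149 counts stood against 2. The ratio was 64.4, with a 95% counting interval from 17.5 to 537 and, in edgeR, adjusted p = 0.00220. Without KO HS replicate 1 the values were 2.74 and 23.3, without KO recovery replicate 1 they were 2.31 and a bound of 11.9, and without KO recovery replicate 2 they were 6.05 and 46.6. None of these reduced comparisons passed the threshold for either transcript, and uc012dmf.1 also missed it without either WT noHS or either KO noHS library. Counting intervals are exact Clopper-Pearson intervals and, like the bounds, cover counting error only.

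The median log2 ratio of the 81 between KO HS and KO recovery was 0.02 per read and −1.02 with TMM, beside −0.63 and −0.99 for the other 247. Both KO recovery libraries lay above both KO HS libraries for 13 members, where 9.45% of the eligible 328 did so, and below them for 13, where 20.1% did so.

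Between the genotypes in recovery, a comparison of 4 libraries outside the ratio, the rates of the 81 spread widely to both sides. Per read, 25 members were at least 2-fold lower in the knockout and 19 at least 2-fold higher. Of the 328 eligible transcripts, 221 were at least 2-fold lower and 34 at least 2-fold higher. The summed rate of the 81 was 1254 and 1626 in WT recovery and 1161 and 1103 in KO recovery, so both knockout libraries were lower. The summed rate of the other 247 was 2719 and 6099 in WT recovery and 1750 and 1035 in KO recovery. The median log2 ratio of KO over WT was 0.08 per read for the 81 (quartiles −2.62 and 0.96), which TMM turned to −0.40, and −3.03 for the other 247. Without KO recovery replicate 1 or 2 the median per read of the 81 was −0.26 or −0.14. Both KO libraries lay below both WT libraries for 25 of the 81, where 48.5% of the eligible 328 did so, and above them for 16, where 9.15% did so.

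In the test, 15 of the 75 members were lower in the knockout and none was higher (edgeR, adjusted p below 0.05). That is 20%, beside 37.8% of the 537 transcripts called lower. With scaling to all reads it was 10 of 75, or 13.3%, beside 9.12%, and all 10 were among the 15. With the 6 of the 15 that had no KO recovery count at the floor of 3, their median log2 ratio per read was −4.33. With TMM the median fitted log2 fold change of the members tested was −0.44. It was −0.40 or 0.25 without KO recovery replicate 1 or 2, and 0.52 or −1.03 without WT recovery replicate 1 or 2.

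The largest fitted differences were again at uc012dmf.1 and uc009ofq.2. The transcript uc012dmf.1 had 17.3 and 33.1 per 1000000 reads in WT recovery. Its KO recovery libraries had no count, which makes it at least 19.1-fold lower (edgeR adjusted p = 0.00110). Its WT rates were 11.8 and 21.5 without heat and 51.8 and 18.0 during it, so it was present in all 6 WT libraries. For uc009ofq.2 the bound was 10.1-fold (edgeR adjusted p = 0.00455). Without KO recovery replicate 1 the bounds were 5.29 and 2.80, and without replicate 2 they were 13.8 and 7.33. Neither transcript passed the threshold without one or the other KO recovery library. Without WT recovery replicate 1 or 2 the bounds were 27.1 or 14.1 for uc012dmf.1 and 18.3 or 5.02 for uc009ofq.2.

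In wild-type recovery the 81 stood between their unheated and heated rates on the median, in ratios that share a group with the rule and are not tested. The choice itself favours such a place, since members were taken for a heated rate no lower than the unheated one. The summed rate was 1254 and 1626 in WT recovery, above both WT noHS libraries, and overlapped the WT HS libraries. The median log2 ratio over WT noHS was 0.44 (quartiles −0.06 and 0.78), beside −0.69 for the other 247. It was 0.19 without WT recovery replicate 2. The ratio was at or above 0 for 58 of the 81 and for 32.9% of the eligible 328. Over WT HS the median was −0.37 for the 81 and 2.18 for the other 247, and 52 of the 81 lay below 0. Without WT HS replicate 1 the median of the 81 was 0.057, and without replicate 2 it was −0.17. Both WT recovery libraries lay above both WT noHS libraries for 22 of the 81, where 10.7% of the eligible did so, and below them for 2, where 10.4% did so. Against WT HS they lay above for 6 members, where 36.9% of the eligible did so, and below for 12, where 4.27% did so. The share of the 81 in the sense counts of the 328 was 26.3% ± 7.43 (SD, n = 2) in WT recovery, beside 22.4% ± 1.11 in KO noHS, 34.6% ± 0.185 in KO HS and 45.7% ± 8.28 in KO recovery (SD, n = 2 each).

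The members with the highest heat ratios, which the rule itself used, had WT recovery rates of 7.80 and 7.16 for uc033gjx.1 and 0.557 and 1.79 for uc008wab.1. For uc033gjx.1 these overlapped the WT HS rates of 6.24 and 166. For uc008wab.1 both lay below the WT HS rates of 10.6 and 2.25. In WT recovery uc012bum.1 had 124 and 32.2, which lay above both WT noHS libraries and overlapped WT HS at 80.1 and 10.1. The WT recovery rates of uc012ewd.1, 15.6 and 129, overlapped both WT noHS, at 8.36 and 24.5, and WT HS, at 29.75 and 4.50.

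The genotypes could be set side by side before and during heat only in libraries that entered the choice, so these values are descriptions. Without heat, the median log2 ratio of KO over WT was 0.06 for the 81 and −0.98 for the other 247. Both KO noHS libraries lay above both WT noHS libraries for 10 members, where 7.62% of the eligible 328 did so, and below them for 9, where 40.5% did so. During heat the median was −0.32 for the 81 and 0.05 for the other 247. Both KO HS libraries lay above both WT HS libraries for 5 members, where 18% of the eligible did so, and below them for 19, where 10.4% did so.

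A count was present in all 8 libraries outside the ratio for 50 of the 81 and for 50 of the other 247. Their counts summed to between 50 and 2011 over the 12 libraries, with a median of 161. All counts of 44 members were on the sense strand, and 7 members had under 95% there, the lowest being uc007yxl.2 with 82.3%. The count on either strand, in which STAR drops a read that falls on transcripts of both strands, was at least 90% of the sense count for 77 members. It was below 20% for 3: uc009cxu.2 had 160 sense counts and 8 on either strand, uc009mku.1 had 94 and 2, and uc009rls.1 had 139 and 2. These 3, uc007yxl.2 and uc033hsg.1 were chosen for mention with their values known. The 3 would be nearly lost in an analysis of either-strand counts, in which 71 of the 81 passed the filter on low counts.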

How the data were processed

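The tools named are STAR and DESeq2 and the genome build is mm10, per the submitters' processing notes. Versions, read trimming and annotation were not given in the sources used here. The authors deposited raw counts per transcript, 1 table per library, with counts on either strand, the sense strand and the antisense strand, per the file layout. All reads of a library are the unassigned classes plus the either-strand counts, and the unassigned classes stayed out of tests. The members, lists and cut points were chosen with earlier results of these data known. Sense counts were used because the choice of transcripts rests on them. Transcripts were kept by filterByExpr (minimum count 10), which left 537, 75 of the 81 members among them. A member that passed only through the group where it is high had to differ. Counts were scaled by TMM (factors 0.261 to 16.0, with the highest in the 2 KO recovery libraries). They were tested with edgeR 4.0.16 (quasi-likelihood, R 4.3.3) in 1 fit of the 12 libraries, with 6 residual degrees of freedom. The biological coefficient of variation was 66.1%. The SE of a fitted log2 fold change was derived as its absolute value divided by the square root of the F statistic of the test. Benjamini-Hochberg adjusted p-values cover the 537 transcripts. DESeq2 1.42.0 was an alternative. The fit was tested on simulated data. The p-values set a difference between groups against the spread between libraries of a group, estimated over the 6 groups and with all transcripts, and cover no more. Named were the 4 members with the highest summed rate over the 8 libraries outside the ratio, the 2 highest heat ratios, the 2 on each side of the cut, at most 2 per direction and comparison with adjusted p below 0.05, no overlap, at least 20 counts and the largest fitted change, and the 2 highest and 2 lowest knockout heat ratios. Others are named as chosen after their values were seen. Folds against groups with no count use a floor of 3 counts over the group.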

Additional observations from a re-analysis of the deposited data

Results flagged for a closer look

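In 5 of the 81 transcripts, both recovery libraries lay above both noHS libraries in the wild type and below both in the knockout, and in 0 the reverse held. Of the other 247 eligible transcripts, 6 showed the first pattern and 3 the reverse, so that the first pattern was found in 3.35% of all 328. The difference between the genotypes was not tested, since WT noHS entered the choice of the transcripts, and 4 of the 5 were named after their values were seen. Per 1000000 reads, uc011wul.1 had 0.697 and 14.3 in WT noHS, 39.0 and 64.4 in WT recovery, 36.8 and 39.7 in KO noHS, and 1.12 and 0 in KO recovery, so that the log2 ratio in the KO minus that in the WT was −7.33. The same difference was −5.68 for uc012bum.1, −4.42 for uc011yrk.2, −4.36 for uc011ydw.1 and −2.93 for uc009ozz.1.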

How the results depend on the processing

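The number of members was 107 with TMM library sizes in place of reads, with all 81 among them. It was 50 with at least 40 rather than 20 wild-type counts, and 44 to 71 with 1 library of the ratio left out. The count of 18 of 75 members lower in KO recovery than in KO noHS stood beside 217 of all 537. It became 8 when edgeR took DESeq2's size factors, beside 35 of 537, and 7 with scaling to all reads, beside 32 of 537. With no filter on low counts it was 1 of 81, beside 13 of 10825. A fit of those groups alone gave 11 of 61 members (9 lower, 2 higher), beside 49 of 203 transcripts. The count of 6 against KO HS stood beside 23 of all 537. With DESeq2 size factors or scaling to all reads, 0 members and 0 of the 537 passed. It was also 0 with no filter, beside 1 of 10825, and with only the groups compared, beside 6 of 160. Either-strand counts gave 2, beside 8 of 618, and the DESeq2 Wald test gave 3, beside 15 of 537. The count of 15 between genotypes in recovery, beside 204 of all 537, became 7 with DESeq2 size factors, beside 39 of 537. With no filter it was 0, beside 1 of 10825, and with only the groups compared 6 of 58, beside 26 of 191. The count of 0 in KO HS became 2 in the DESeq2 Wald test, beside 21 of 537. With 1 library left out, the 4 counts ran from 0 to 18, 0 to 5, 0 to 17 and 0 to 0. With the replicate number as a block they were 14, 2, 13 and 0. Of 15 correlations between groups of the replicate differences, from −0.26 to 0.27, 3 were over 0.1. With 1 such difference per group, these values cannot tell whether the numbers pair the samples. Median log2 ratios per read changed as follows. With TMM sizes, KO recovery over KO noHS was −0.43, over KO HS −1.02 and over WT recovery −0.40, and WT recovery over WT HS was −0.74. With at least 40 counts, KO HS over KO noHS was −0.11 and KO recovery over WT recovery −0.076. With 1 library left out, the ranges were −0.35 to 0.40 for KO HS over KO noHS, −0.24 to 0.63 for KO recovery over KO noHS, −0.27 to 0.40 over KO HS, −0.26 to 0.079 over WT recovery, 0.19 to 0.61 for WT recovery over WT noHS and −0.49 to 0.057 over WT HS. The causes were not tested. For the 4 transcripts named from the tests, the threshold was missed in 32 of 109 alternative fits, and the direction could hardly turn, since KO recovery had 0 counts or, for uc012ewd.1, 2. Depth limits the precision, since the median member had 161 counts over the 12 libraries.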
